A study of Mus musculus with 13 samples.

Results

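Members of the tumour necrosis factor (TNF) superfamily were taken from glucocorticoid receptor (GR) binding maps of mouse embryonic fibroblasts. They were chosen by symbol, as genes named Tnfsf or Tnfrsf with a number, together with Tnf, Lta, Ltb, Fas, Fasl, Cd40, Ltbr and Ngfr. Of the 49997 mouse genes in the RefSeq table, 40 matched, namely 15 ligand genes, 24 receptor genes and 1 antisense RNA gene, Tnfsf13os. Positions of the receptor came from 13 ChIP-seq libraries (sequencing of the chromatin pulled down by an antibody), all made with 1 antibody against GR after fixation with DSG and formaldehyde. The fibroblasts came from male C57BL/6 embryos at day 13.5, with head and internal organs removed, and were cultured for 7 days. Both alleles of the receptor gene were wild-type (GR wt / wt), mutant (GR Zn / Zn, named C437G in the descriptions) or knocked out (GRKO/KO). Dexamethasone (Dex, a synthetic glucocorticoid) at 1 µM for 16 h was given to all groups. Lipopolysaccharide (LPS, a bacterial product that sets off inflammatory signalling), labelled at 100 ng/µl for 3 h, was added in 3 wild-type, 4 mutant and 2 knockout libraries, while 2 wild-type and 2 mutant libraries had Dex alone.

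TNF superfamily ligands are mostly trimeric proteins at the cell surface or shed from it, and their receptors carry cysteine-rich repeats outside the cell. Inside, receptors recruit TRAF adaptors that switch on NF-kB and MAP kinases, or, where they carry a death domain, adaptors that can start apoptosis or necroptosis. Fibroblasts are responders to TNF, and glucocorticoids are known for restraining TNF-driven inflammation, in part through GR bound to DNA and in part through GR held at other transcription factors.

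For the 3 peak lists under Dex+LPS the authors had merged libraries by genotype and removed peaks seen in knockout cells, per the file names. They held 18953 peaks of wild-type cells alone (wild-type-specific), 3533 shared and 2187 of mutant cells alone (mutant-specific), each 200 bp wide. The lists under Dex alone held 412 and 854 peaks (wild-type) and 53 and 60 (mutant), with 1 list per library. A peak here is a position with no height, score or p-value, and the depth is unknown. The merged lists carry no spread between samples, so no test between genotypes was possible at any gene. Positions of peaks also give no level of any transcript, so neither the cell type nor the genotype could be checked against marker genes.

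Peaks met the start of 3 genes of the family, 1 in each class. The RefSeq promoter windows of these genes (250 bases before to 50 after the start, assembly GRCm38.p6, 5′ to 3′) are shown. Each window overlaps its peak, but a peak is an interval 200 bp wide and does not fix where the receptor sat within it. Capitals mark the bases that lay within the peak. Tnfsf18 (wild-type-specific peak, plus strand, chr1:161494407-161494706), Ltbr (shared peak, minus strand, chr6:125313836-125314135) and Tnfrsf12a (mutant-specific peak, minus strand, chr17:23677400-23677699) read as follows.
Tnfsf18: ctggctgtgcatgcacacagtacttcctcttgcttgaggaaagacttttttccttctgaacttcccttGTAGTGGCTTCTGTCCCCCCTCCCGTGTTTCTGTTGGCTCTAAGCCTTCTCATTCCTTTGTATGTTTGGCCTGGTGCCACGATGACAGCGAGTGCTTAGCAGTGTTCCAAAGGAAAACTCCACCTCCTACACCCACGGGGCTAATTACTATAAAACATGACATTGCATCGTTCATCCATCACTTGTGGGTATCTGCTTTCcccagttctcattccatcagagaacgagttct
Ltbr: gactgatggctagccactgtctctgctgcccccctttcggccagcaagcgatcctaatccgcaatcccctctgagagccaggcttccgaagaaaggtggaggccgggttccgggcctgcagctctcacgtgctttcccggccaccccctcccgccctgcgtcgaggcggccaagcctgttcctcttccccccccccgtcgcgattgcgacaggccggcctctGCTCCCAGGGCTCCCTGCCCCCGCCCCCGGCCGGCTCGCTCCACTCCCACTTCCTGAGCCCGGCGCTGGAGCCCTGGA
Tnfrsf12a: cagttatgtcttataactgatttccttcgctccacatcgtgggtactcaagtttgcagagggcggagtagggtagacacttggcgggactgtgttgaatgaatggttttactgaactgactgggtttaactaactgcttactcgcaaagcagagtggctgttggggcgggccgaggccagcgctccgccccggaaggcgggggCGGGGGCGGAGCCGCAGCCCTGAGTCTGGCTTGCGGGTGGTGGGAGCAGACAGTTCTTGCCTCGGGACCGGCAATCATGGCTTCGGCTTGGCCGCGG

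The whole 200 bp peak of Tnfsf18 fell inside its window, whereas 78 bases of the Ltbr peak and 97 of the Tnfrsf12a peak did. None of these 3 windows held the core of a glucocorticoid response element (ACANNNTGT, both strands), an AP-1 site (TGANTCA, both strands) or the NF-kB consensus (both strands). Among the 35 windows of the 31 family genes in the promoter table, 0 held the response element core, 7 the AP-1 site and 4 the NF-kB consensus. Of all 32851 windows, 6.85%, 7.81% and 8.46% held them. The AP-1 site lay in windows of Tnfrsf8, Tnfrsf9, Tnfsf13b (both of its windows), Tnfsf13, Tnfsf14 and Fas, and the NF-kB consensus in those of Tnfrsf8, Tnfrsf9, Tnfrsf25 and Ltb. None of those windows held a peak. For the family, 1 of 35 windows (2.86%) met a peak of each class. Over all windows the shares were 3.29% in the wild-type-specific class, 1.05% in the shared class and 0.56% in the mutant-specific class.

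Under Dex+LPS, 19 of the 40 genes had at least 1 peak and 21 had none assigned to them. The 19 genes held 52 of the 24673 peaks: 41 were of wild-type cells alone, 6 were shared and 5 were of mutant cells alone. Of the 39 protein-coding members, 16 had a wild-type-specific peak (41.0%), where 30.6% of all 21900 protein-coding genes did. A shared peak was assigned to 5 members (12.8%, against 9.37% of all genes), and a mutant-specific peak to 5 (12.8%, against 5.36%). With the count limited to peaks inside a gene or within 10 kb of its start, 9 members had a wild-type-specific peak (23.1%) and so did 23.4% of all genes. For shared and mutant-specific peaks these shares were 7.69% and 10.3% of members, against 6.42% and 3.78% of all genes. Close to genes, the family thus stood near the level of all genes for wild-type-specific peaks, and its shares in the mutant-specific class rest on 4 or 5 genes.

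**Figure D1:**
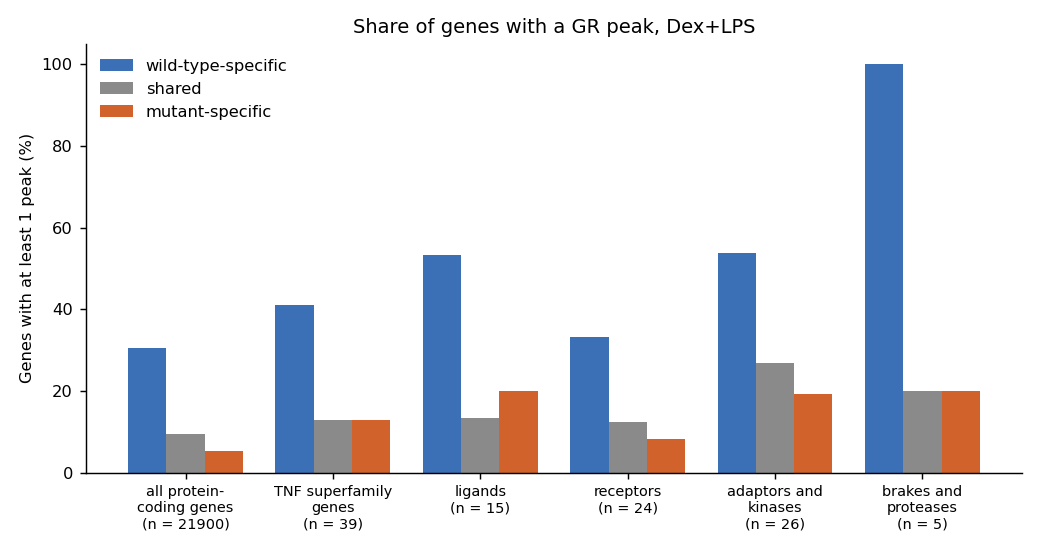
Bars show the percentage of genes (vertical axis) with at least 1 GR peak of each class under Dex+LPS, for all protein-coding genes, the TNF superfamily, its ligands and receptors, and the lists of signalling genes. Bars are counts over merged peak lists and have no error. The family stood at 41.0%, 12.8% and 12.8%, against 30.6%, 9.37% and 5.36% of all genes.

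Of the 17 members with a wild-type peak (specific or shared), 10 had no mutant peak, which is 58.8%, against 66.0% of the 7219 such genes overall. Both genotypes had peaks at 7 members (Tnfsf4, Tnfsf11, Tnf, Tnfsf15, Tnfrsf1b, Tnfrsf8 and Ltbr), and 2 members, Tnfrsf12a and Tnfrsf18, had a mutant-specific peak and no wild-type peak. These are 17.9% and 5.13% of the protein-coding members, against 11.2% and 1.39% of all protein-coding genes, and the second share rests on 2 genes. Among the 47 wild-type peaks at members, 6 were shared, 12.8% (exact 95% binomial interval 4.83 to 25.7%, counting error only), and the share at all other genes was 15.7%. Peaks of any class were present at 8 of 15 ligand genes (53.3%) and at 11 of 24 receptor genes (45.8%), against 34.4% of all protein-coding genes. Ligand genes held 28 peaks, of which 22 were specific to wild-type cells, 3 shared and 3 specific to mutant cells. Receptor genes held 24, with 19, 3 and 2 in the same order.

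**Figure D2:**
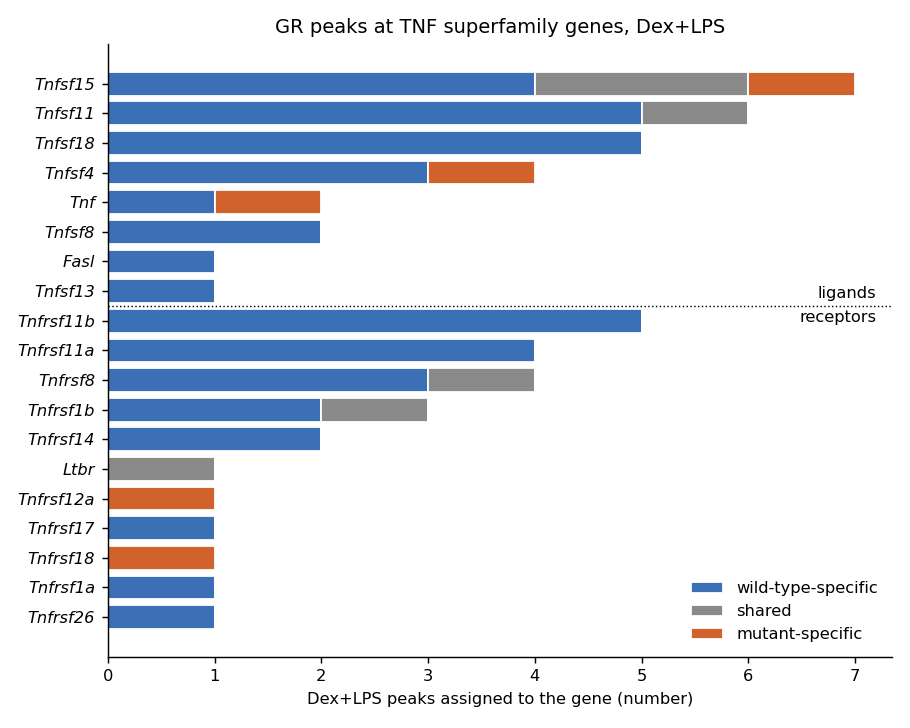
Horizontal bars give the number of Dex+LPS peaks assigned to each of the 19 members with a peak, split by class, with ligands above and receptors below the dotted line. Tnfsf15 had the most peaks, 7, and Tnfsf11 had 6, while 8 members had 1 peak each.

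Among ligands, Tnfsf15 (chromosome 4, 63724600 to 63745059) had the most peaks of the family and was the single member with all 3 classes. It encodes TL1A, a ligand that costimulates T cells through the receptor Tnfrsf25. Its 7 peaks (4 wild-type-specific, 2 shared, 1 mutant-specific) spread over 68.0 kb, and 3.05% of all protein-coding genes had at least as many peaks in total. A shared peak (63726106 to 63726305) and the mutant-specific peak (63740785 to 63740984) lay inside the gene, the latter 4.23 kb from its start and 12.1 kb from the nearest wild-type peak. The other shared peak lay 8.09 kb upstream (63753106 to 63753305). On each side the outermost peaks were wild-type-specific, at 26.9 kb on the downstream side and at 11.4, 40.5 and 40.9 kb upstream. The peaks at 26.9 and 11.4 kb lay 7.77 and 3.15 kb from the nearest mutant peak. The neighbouring ligand gene Tnfsf8, which encodes the CD30 ligand, had 2 wild-type-specific peaks, 63.0 and 64.6 kb beyond its start on the downstream side. These sat in the gap of 86.1 kb between the genes and nearer to the start of Tnfsf15 (51.6 and 53.1 kb), so to which gene they belong cannot be told apart.

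Tnfsf11 (chromosome 14, 78277446 to 78308043) encodes RANKL, the ligand that drives osteoclast formation, and in mouse bone cells it is known to be controlled from enhancers far upstream of its start. All 6 of its peaks were upstream of the gene, and none lay inside it. The wild-type-specific peaks stood at 22.9, 55.2, 68.2, 88.3 and 90.0 kb from the start. In the middle of this run, 76.5 kb upstream, was the shared peak (78384467 to 78384666). Of the 6 wild-type positions at this ligand, 1 was thus also listed in mutant cells, where 15.7% of all wild-type peaks were shared. Its receptors had wild-type-specific peaks alone. Tnfrsf11a, which encodes the signalling receptor RANK (chromosome 1, 105780673 to 105849444), had 4, of which 1 lay inside the gene (105832938 to 105833137) and 3 beyond its end. The nearest mutant peak was a shared peak assigned to Zcchc2 (105925793 to 105925992), 17.2 kb from the outermost of the 4. By the nearest RefSeq start, 2 of the 4 peaks fell to Tnfrsf11a. Tnfrsf11b, which encodes the decoy receptor osteoprotegerin (chromosome 15, 54250619 to 54278484), had 5, all beyond the gene end and 37.8 to 186 kb from the start. No mutant peak lay within 517 kb of any of these 5 peaks. Across the 3 genes of this axis, by the authors' assignment, 14 peaks were specific to wild-type cells, 1 was shared and none was specific to mutant cells. Over all 24673 Dex+LPS peaks, 18953 were wild-type-specific, 3533 shared and 2187 mutant-specific.

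On chromosome 1 the ligand genes Tnfsf4, Tnfsf18 and Fasl follow each other. Tnfsf18 encodes GITRL, a costimulator of T cells (161494657 to 161505290), and had 5 peaks, all specific to wild-type cells. The peak whose sequence is shown (161494475 to 161494674) overlapped its start, 2 lay inside the gene at 2.94 and 6.26 kb, and the others lay 12.2 kb upstream and 127 kb from the start on the downstream side. No mutant peak lay within 127 kb of them. Tnfsf4, which encodes OX40L, another T cell costimulator (161395438 to 161418206), had 3 wild-type-specific peaks and 1 mutant-specific peak. The mutant-specific peak (161354317 to 161354516) lay 41.0 kb upstream, and a wild-type-specific peak (161353188 to 161353387) stood 929 bp from it. The remaining wild-type-specific peaks were 30.2 kb upstream and, inside the gene, 11.2 kb from the start. Fasl, the gene of the death ligand that binds Fas, had 1 wild-type-specific peak, 53.4 kb from its start on the downstream side.

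Tnf itself, the founding ligand and a main product of LPS-treated macrophages (chromosome 17, 35199367 to 35202007), had a peak of each genotype at separate positions inside the gene. The mutant-specific peak (35201751 to 35201950) had its centre 157 bp from the start, and its near edge was 57 bp from it. The wild-type-specific peak (35200588 to 35200787) lay 1319 bp from the start, and 963 bp separated both. At Tnf the mutant peak was thus the one closer to the promoter, but without heights or replicates the lists cannot show whether the 2 genotypes differ there. Ltb and Lta, which encode the lymphotoxins, flank Tnf at 3.06 and 1.16 kb and had no peak assigned to them. With genes this close, a peak at Tnf cannot be assigned to 1 of the 3 with certainty.

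**Figure D3:**
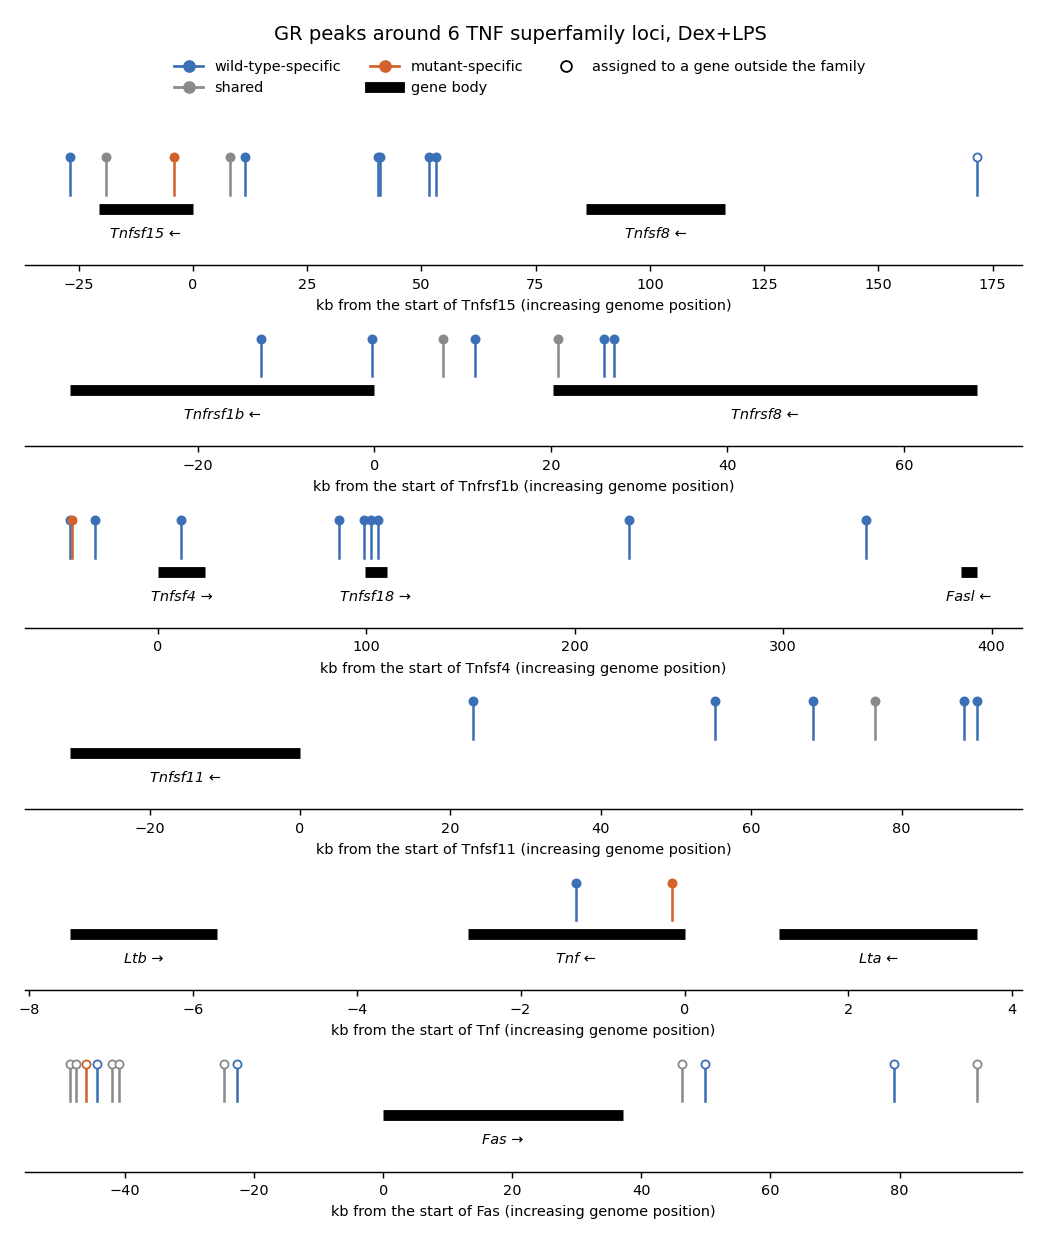
Each panel shows gene bodies as black bars, with an arrow for the direction of transcription, and the Dex+LPS peaks around them as coloured pins, by distance in kb from the start of the first-named gene (horizontal axis). Open heads mark peaks assigned to genes outside the family. The shared peak of Tnfsf11 stands 76.5 kb upstream among 5 wild-type-specific peaks, Tnf has 1 wild-type-specific and 1 mutant-specific peak, and no peak near Fas was assigned to it.

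Of the remaining ligands, Tnfsf13, which encodes the B cell factor APRIL, had 1 wild-type-specific peak inside the gene (chromosome 11, 69683105 to 69683304), 2.35 kb from its start. That position is also within the span of Tnfsf13os, and ChIP-seq does not tell strands apart. By the nearest RefSeq start, this peak did not fall to Tnfsf13, which then had 0 peaks. Tnfsf9, Tnfsf10, Tnfsf12, Tnfsf13b, Tnfsf14, Lta and Ltb had no peak assigned. Tnfsf10 encodes the death ligand TRAIL, and its closest peak was mutant-specific, 46.6 kb from the gene and assigned to Nceh1.

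Among receptors, the principal TNF receptors both had wild-type-specific peaks. Tnfrsf1b, which encodes TNFR2 (chromosome 4, 145212368 to 145246870), had 3 peaks. A wild-type-specific peak (145246448 to 145246647) lay 322 bp inside the gene, and another 12.9 kb from the start. Its shared peak (145254506 to 145254705) lay 7.74 kb upstream. The neighbouring gene, Tnfrsf8, encodes CD30 (145267132 to 145315164) and had 4 peaks (3 wild-type-specific, 1 shared), 41.1 to 56.9 kb from its start. All 4 were nearer to the start of Tnfrsf1b (11.4 to 27.2 kb), so the 7 peaks of both genes form 1 run. Tnfrsf1a, which encodes TNFR1, the death domain receptor for TNF (chromosome 6, 125349723 to 125362483), had 1 wild-type-specific peak inside the gene (125354798 to 125354997), 5.17 kb from its start. The nearest mutant peak was 40.9 kb away.

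That mutant peak was the shared peak of Ltbr, the lymphotoxin beta receptor gene, which lies 35.8 kb from Tnfrsf1a. Ltbr (chromosome 6, 125306571 to 125313885) had this single peak (125313714 to 125313913), which overlapped its start. It was the sole member whose start met a peak in both genotypes. Tnfrsf12a encodes Fn14, the receptor for the ligand TWEAK and a gene known to be induced in injured tissue (chromosome 17, 23675445 to 23677449). Its single peak was mutant-specific (23677297 to 23677496) and overlapped its start. The nearest wild-type peak, 3.3 kb away, was assigned to the next gene, Thoc6. Tnfrsf18, which encodes GITR, the receptor for Tnfsf18, had 1 mutant-specific peak (chromosome 4, 156029902 to 156030101). This peak lay 3.66 kb from the start and 1.01 kb beyond the gene end. The nearest wild-type peak lay 169 kb from it. At this ligand and receptor pair, the ligand gene thus carried wild-type-specific peaks alone and the receptor gene a mutant-specific peak alone.

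Tnfrsf14, which encodes the herpesvirus entry mediator, had 2 wild-type-specific peaks, 14.3 kb upstream and 16.8 kb from the start on the downstream side. A mutant-specific peak assigned to Fam213b lay 9.75 kb from the gene and 2.43 kb from the downstream peak. By the nearest RefSeq start, 1 of the 2 peaks stayed with Tnfrsf14. Tnfrsf17, which encodes the plasma cell receptor BCMA, had 1 wild-type-specific peak 27.8 kb upstream. Tnfrsf26 had 1 inside the gene, 2.67 kb from its start. Both other genes of the Tnfrsf26 cluster on chromosome 7, Tnfrsf22 and Tnfrsf23, had none. Cd40, Ngfr, Tnfrsf4, Tnfrsf9, Tnfrsf10b, Tnfrsf13b, Tnfrsf13c, Tnfrsf19, Tnfrsf21, Tnfrsf25 and Fas had no peak either. Several of these, such as Cd40, Tnfrsf13b and Tnfrsf13c, are known mainly from B cells.

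Fas, the death receptor gene (chromosome 19, 34290647 to 34327775), lies within a span of 35.8 Mb that the authors' annotation gives to the microRNA gene Mir3084-1. No peak lay inside Fas. Within 30 kb of the gene were 2 wild-type-specific and 2 shared peaks, all assigned to Mir3084-1. The closest, a shared peak (34336815 to 34337014), stood 9.04 kb beyond the gene end. With peaks given to the gene of the nearest RefSeq start, Fas had 4 peaks (2 wild-type-specific, 2 shared), at least 46.3 kb from its start, and the 2 nearest of them are among those within 30 kb. Within 100 kb of Fas were 19 peaks (6 wild-type-specific, 10 shared, 3 mutant-specific), the most among members without a peak. Tnfrsf9, which encodes 4-1BB, came next with 15 within 100 kb (5 wild-type-specific, 3 shared, 7 mutant-specific), and Lta and Ltb had 10 each. Of the 15 at Tnfrsf9, 14 lay 44.6 to 82.5 kb before the gene, mostly assigned to Errfi1.

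**Figure D4:**
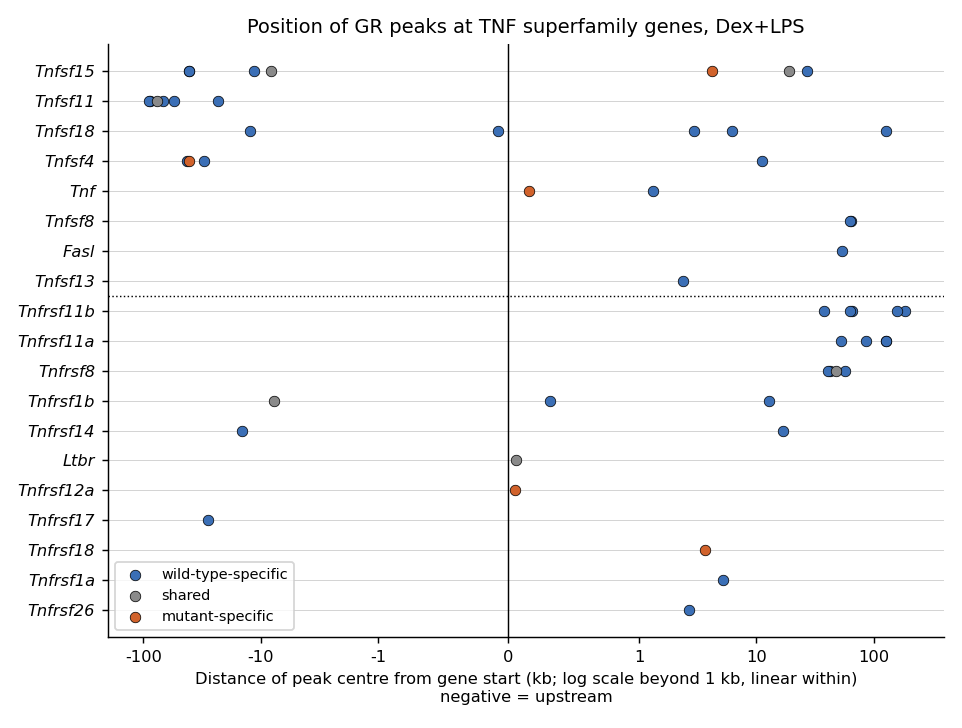
Points give the distance of each peak centre from the start of its gene (horizontal axis in kb, negative upstream, logarithmic beyond 1 kb) for the 19 members with a peak, by class. The mutant-specific peaks of Tnfrsf12a and Tnf stand within 1 kb of the start, and all peaks of Tnfsf11 are upstream.

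The 5 mutant-specific peaks at the family stood at varied distances from gene starts, and 4 of them were near. Their distances were 53 bp (Tnfrsf12a), 157 bp (Tnf), 3.66 kb (Tnfrsf18), 4.23 kb (Tnfsf15) and 41.0 kb (Tnfsf4), with a median of 3.66 kb. The median over all mutant-specific peaks was 20.8 kb. This depends on the assignment: with peaks given to the gene of the nearest RefSeq start, 8 mutant-specific peaks fell to members and their median was 22.6 kb, against 17.6 kb over all such peaks. By the authors' assignment, for the 6 shared peaks it was 13.5 kb, against 37.2 kb over all, and for the 41 wild-type-specific peaks 40.9 kb, against 42.3 kb. Of the mutant-specific peaks, 4 of 5 lay within 10 kb of a start, against 37.5% over all genes. The same was true of 3 of 6 shared peaks (28.3% over all genes) and of 8 of 41 wild-type-specific peaks (23.9%). With 5 mutant-specific and 6 shared peaks, the numbers in these 2 classes are too small to set apart from all genes, and no test was run. Wild-type-specific peaks were inside a member in 12 of 41 cases (29.3%), against 47.6% over all genes, and 15 of the 41 (36.6%) lay beyond the gene end, against 23.5% over all genes. Runs at single genes weigh in these shares: all 5 peaks of Tnfrsf11b and 3 of the 4 at Tnfrsf11a lay beyond the gene end. Peaks of a run are not independent, and this contrast was not tested. The gap from a mutant-specific peak to the nearest wild-type peak ranged from 929 bp to 169 kb (median 3.3 kb, against 7.54 kb over all mutant-specific peaks).

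Peaks were unevenly spread over the family. The 4 genes with at least 5 peaks (Tnfsf15, Tnfsf11, Tnfsf18 and Tnfrsf11b) held 23 of the 52 (44.2%). Members with a peak had a median territory (gene length plus the nearer part of the gap, split at its middle, to each neighbouring protein-coding gene) of 53.3 kb, and protein-coding members without a peak 32.6 kb, against 46.4 kb over all protein-coding genes. The part of territory in these counts was not tested. Neighbours are not independent: 21 of the 40 genes lie within 100 kb of another member.

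Under Dex alone no member had a peak in any of the 4 libraries. None of 412 and 854 wild-type peaks was at a member, which allows a share of up to 0.728% and 0.351% of peaks, and none of 53 and 60 mutant peaks, which allows up to 5.66% and 5.0% (counting error only). Of all protein-coding genes, 1.09% and 1.86% had a peak in the wild-type libraries and 0.142% and 0.183% in the mutant libraries. At such shares, 0 of 39 genes cannot be set apart from the level of all genes. No Dex peak overlapped any of the 52 Dex+LPS peaks. The closest Dex peak to any member stood 313 kb from Tnfrsf18, in wild-type library 2. Whether LPS brought the receptor to these genes was not tested, since the merged Dex+LPS lists and the Dex lists differ in how they were made.

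Among genes that act downstream of the receptors, 14 of 26 adaptors and kinases (53.8%) had a peak specific to wild-type cells, against 30.6% of all protein-coding genes. A shared peak was present at 7 (26.9%, against 9.37%) and a peak specific to mutant cells at 5 (19.2%, against 5.36%). These counts take peaks at any distance, no count within 10 kb was made for the signalling lists, and no test of these differences was run. A peak of any class was present at 15 of the 26 genes (57.7%, against 34.4% of all protein-coding genes). Traf3, Traf4, Tradd, Ripk1, Ripk3, Tab1, Tab3, Ikbkb, Rnf31, Rbck1 and Sharpin had no Dex+LPS peak. Cflar, which encodes the caspase inhibitor c-FLIP, had 10 peaks, of which 4 were shared and 2 mutant-specific. Birc3 and Birc2, neighbouring genes of the ubiquitin ligases cIAP2 and cIAP1, had 6 and 4 peaks, of which 3 and 1 were mutant-specific. Map3k7, the gene of the kinase TAK1, had 7 peaks, none of them in mutant cells. Fadd, the death domain adaptor, had 3 peaks, of which 2 were shared. Casp8, the protease it activates, and the adaptor gene Traf1 each had 3, of which 1 was shared. Traf5 had 3 wild-type-specific and 1 mutant-specific peak, and Traf2 and Traf6 had 1 wild-type-specific peak each. Mlkl, the executor of necroptosis, was the sole gene of this list with peaks in mutant cells, 2, and none in wild-type cells. This is 3.85% of the list, against 1.39% of all protein-coding genes, and the nearer peak lay 29.8 kb from the start of Mlkl.

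All 5 genes of the list of brakes and proteases had a wild-type-specific peak (30.6% of all protein-coding genes did), and 1 of them also had peaks in mutant cells (12.6% of all genes did). This was Tnfaip3, the gene of the ubiquitin-editing enzyme A20, with 15 peaks, of which 5 were shared and 6 mutant-specific. Cyld, a deubiquitinase that limits NF-kB, had 4 wild-type-specific peaks, Tnip1 had 2 and Otulin 1, with no mutant peak. Adam17, the protease that sheds TNF from the cell surface, had 2 wild-type-specific peaks. Of the 7 superfamily genes outside the naming rule, 1 had a peak (34.4% of all genes did), namely Relt with 1 wild-type-specific peak, and Cd27, Cd70, Cd40lg, Eda, Eda2r and Edar had none. Over the 38 genes of these lists, 16 of 60 wild-type peaks were shared, 26.7% (interval 16.1 to 39.7%), and 12.8% of the family's own 47 (4.83 to 25.7%). Over all wild-type peaks 15.7% were shared, just below the interval of these lists, which covers counting error only, and this was not tested. The intervals of the lists and of the family overlap, neighbouring peaks depend on each other, and no difference between the lists is shown.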

How the data were processed

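ChIP-seq of GR was deposited as 3 merged peak lists (Dex+LPS) and 4 lists of single libraries (Dex). The deposited values were positions and distances in base pairs; the unit of every column used is thus another unit than a count or signal, per the file headers. BWA 0.7.13, Picard 1.119, MACS2 2.1.0 and build mm10 are named in the submitters' processing notes without their roles. Libraries were merged, knockout peaks removed and Dex peaks thresholded by false discovery rate, per the file names, which also carry that threshold. No source used here gives the other settings. Read depth was not used here, so depth is unknown and 3 merged wild-type libraries stand against 4 mutant ones.

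Each peak was taken with the authors' gene and distance from gene start to peak centre. Of the gene identifiers of Dex+LPS peaks, 99.9% matched the RefSeq table (GRCm38.p6). Shares of genes refer to 21900 protein-coding genes, and intervals for shares of peaks are exact binomial (95%). A count of 0 allows 3 peaks. Gaps and grouping of peaks were tested on simulated data against bedtools 2.31.1. Tables were made in Python 3.11.15 with pandas 2.3.3 and numpy 2.4.6, intervals with scipy 1.17.1 and plots with matplotlib 3.10.9. Sequences are RefSeq promoter windows; 31 of 40 members had one, and Tnfsf4, Tnfsf9, Tnfsf12, Tnfsf13os, Cd40, Tnfrsf10b, Tnfrsf11b, Tnfrsf22 and Tnfrsf26 had none. Motifs were not searched in other peaks, since no genome was used here. Every member was named, with positions for peaks inside a gene, within 10 kb of its start, or nearest to the start at members with at least 3 peaks; other positions were added after the values were seen. The members and lists were chosen with earlier results of these data known.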

Additional observations from a re-analysis of the deposited data

How the results depend on the processing

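Of 23 comparisons with an alternative setting, 20 stayed within 1.5 times the reported count or within the reported interval and 3 moved. Part of the 20 could not move. Dex counts of 0 stay 0 when a library is left out or a stricter limit is set. Another setting counted peaks with centres within 1 kb as 1 site, which cannot change how many genes have a peak. With peaks inside a member or within 10 kb of its start, 9 members in place of 16 had a wild-type-specific peak and 3 in place of 5 a shared peak; fewer peaks enter by construction. With the gene of the nearest RefSeq start, 8 members in place of 5 had a mutant-specific peak (Tnfrsf8, Tnfsf8 and Tnfsf10 gained 1 each, 89.5 kb away at Tnfsf8), and 6.97% of the 19056 genes with a start had one. A start was at hand for 34 of the 39 protein-coding members. The 5 without one (Cd40, Tnfrsf10b, Tnfrsf22, Tnfsf12 and Tnfsf9) had no peak by the authors' assignment, and this setting could not give them one. Of the protein-coding members absent from the promoter table, only those with a peak (Tnfsf4, Tnfrsf11b and Tnfrsf26) had a start. The shared percentage of wild-type peaks reached at most 23.5% over the alternatives, within the interval of the reported 12.8%. No member had a Dex peak in either genotype, also without replicate 1 or replicate 2 (0 in each case). No paired analysis was possible because the results are counts of positions in merged lists or in lists without a member peak, and no test was fitted. Unknown depth, the absence of peak heights and the removal of knockout peaks limit each statement on a missing peak.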

Other observations

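Ripk3, the kinase that drives necroptosis through Mlkl, was the sole gene of the signalling lists with a peak under Dex alone. Both wild-type libraries had a peak 12.6 kb upstream of the gene at nearly the same position (chromosome 14, 55801270 to 55801602 in library 1 and 55801266 to 55801668 in library 2), and neither mutant library had one. Ripk3 had no Dex+LPS peak, and none of the Dex+LPS peaks overlapped this position. The gene was singled out after its values were seen, and the lists of the 2 treatments were made differently, so this difference was not tested. Ripk3 was 1 of 38 genes in these lists. Over all protein-coding genes, 1.09% and 1.86% had a peak in the wild-type Dex libraries and 0.142% and 0.183% in the mutant ones. The mutant lists held 53 and 60 peaks, so a missing mutant peak cannot be read as a difference between genotypes.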
